A study of Mus musculus with 2 samples.

Results

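The genes described here carry out the breakdown of the branched-chain amino acids leucine, isoleucine and valine: Bcat1, Bcat2, Bckdha, Bckdhb, Dbt, Bckdk, Ppm1k, Ivd, Mccc1 and Hibadh. They were chosen by name, with no expression value in the rule, and are 10 of the 55536 genes quantified. All 10 were found in the gene table and in both transcript tables of each library.

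The data are total RNA sequencing of gastrocnemius, the large calf muscle, from female B6CASTF1/J mice at 36 days of age. B6CASTF1/J is the F1 cross of the C57BL/6J laboratory strain with a castaneus strain, so that each cell carries alleles of both. The 2 libraries, replicate 2 and replicate 1, form 1 group, with an input of 300 ng RNA apiece and ERCC spike-in standards, and the labels give no treatment or mutation for either. The labels call them biological replicates without saying whether each is a mouse of its own, and part of the spread between them may be technical. With 1 library on each side of every difference no test is possible and no p-value is given. Differences are therefore described as ratios of replicate 2 over replicate 1, beside the same ratios over all genes.

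Branched-chain amino acids are broken down mainly outside the liver, and skeletal muscle is known as a major site of their first step. An aminotransferase moves the amino group to 2-oxoglutarate, and the branched-chain keto acids formed are then oxidised in mitochondria by the branched-chain keto acid dehydrogenase complex, the committed step. That complex is built of E1 (alpha and beta subunits), the E2 core and the E3 subunit, and is switched off by a kinase and on by a phosphatase that act on E1 alpha. After it the carbon skeletons take separate routes, to acetyl-CoA and acetoacetate for leucine, to propionyl-CoA for valine and to both acetyl-CoA and propionyl-CoA for isoleucine.

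Sequences are shown for 3 members whose transcripts begin or are spliced at more than 1 place, and for the member that differed most between the libraries. The first pair is the splice junction at exon 5 of Bcat2, where Bcat2-201 holds 15 coding bases that Bcat2-202 lacks (chr7:45585111-45585125, GRCm38, plus strand, GENCODE M21 transcripts). These bases are in capitals, with 30 bases on each side.
Bcat2-201: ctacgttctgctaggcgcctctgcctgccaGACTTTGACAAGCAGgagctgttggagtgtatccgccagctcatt
Bcat2-202: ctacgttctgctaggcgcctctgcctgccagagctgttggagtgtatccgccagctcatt

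The promoter windows run from 250 bases before to 50 bases after a RefSeq gene start on GRCm38.p6, and are written on the strand of the gene. Capitals mark the letters CCAAT or their reverse complement. Bckdhb and Bcat1 each have a pair of windows, and Ppm1k has a single one. The upstream Bckdhb window covers the first base of transcript Bckdhb-201 at position 83925150, and the RefSeq start of the downstream one is the first base of Bckdhb-205 at 83948781. The upstream Bcat1 window holds the first base of Bcat1-203 at 145076184, and the downstream one that of Bcat1-201 at 145048812.
Bckdhb upstream start, chr9:83924887-83925186, plus strand: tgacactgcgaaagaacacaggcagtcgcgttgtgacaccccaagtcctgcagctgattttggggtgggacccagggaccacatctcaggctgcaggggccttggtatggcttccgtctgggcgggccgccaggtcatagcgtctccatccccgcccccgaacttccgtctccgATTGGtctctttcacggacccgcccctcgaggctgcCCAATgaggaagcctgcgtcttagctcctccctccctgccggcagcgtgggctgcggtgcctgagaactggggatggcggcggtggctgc
Bckdhb downstream start, chr9:83948531-83948830, plus strand: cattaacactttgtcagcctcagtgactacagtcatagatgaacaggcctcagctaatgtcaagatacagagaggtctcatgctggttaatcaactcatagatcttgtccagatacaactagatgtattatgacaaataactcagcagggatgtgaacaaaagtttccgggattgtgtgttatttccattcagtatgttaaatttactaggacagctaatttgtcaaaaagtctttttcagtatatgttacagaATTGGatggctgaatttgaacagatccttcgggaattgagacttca
Bcat1 upstream start, chr6:145076108-145076407, minus strand: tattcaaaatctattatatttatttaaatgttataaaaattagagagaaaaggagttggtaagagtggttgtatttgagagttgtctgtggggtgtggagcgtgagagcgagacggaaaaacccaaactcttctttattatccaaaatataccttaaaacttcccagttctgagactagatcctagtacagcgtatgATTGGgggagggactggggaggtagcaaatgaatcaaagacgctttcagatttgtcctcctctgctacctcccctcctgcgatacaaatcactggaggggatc
Bcat1 downstream start, chr6:145048763-145049062, minus strand: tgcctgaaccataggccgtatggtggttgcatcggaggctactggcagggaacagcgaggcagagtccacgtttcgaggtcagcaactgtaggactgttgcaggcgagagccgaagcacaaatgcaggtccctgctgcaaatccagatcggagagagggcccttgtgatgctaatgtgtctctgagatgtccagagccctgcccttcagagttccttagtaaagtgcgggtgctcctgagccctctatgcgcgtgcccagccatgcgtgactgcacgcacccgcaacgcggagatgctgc
Ppm1k start, chr6:57535438-57535737, minus strand: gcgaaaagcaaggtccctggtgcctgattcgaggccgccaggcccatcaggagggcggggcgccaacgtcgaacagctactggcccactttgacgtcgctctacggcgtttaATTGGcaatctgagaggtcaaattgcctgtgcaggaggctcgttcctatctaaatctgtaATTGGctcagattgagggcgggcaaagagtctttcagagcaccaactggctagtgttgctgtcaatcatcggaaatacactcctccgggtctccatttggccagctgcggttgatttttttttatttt

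RefSeq windows matched 9 members, with 12 windows in all, beside 32851 windows over all genes. The letters CCAAT, searched on both strands, stood in 8 of the 12 member windows and in 37.4% of all windows. The GC box letters GGGCGG stood in 4 member windows and in 35.7% of all, and the TATA box letters TATAAA in 2 member windows and in 13.6% of all. The E-box letters CACGTG were found in 0 member windows and in 7.15% of all windows. The letters AGGTCA, a hexamer of nuclear receptor sites, stood in 4 member windows and in 16.3% of all, while the longer TNAAGGTCA, which contains them, was found in 0 member windows and in 1.28% of all. Among the windows printed, the upstream Bckdhb window was rich in G and C at 65.0% and the downstream one was not, at 37.3%. The median over the member windows was 52.8% G and C, against 52.7% over all windows. In the windows printed, CCAAT stood at 2 places in the upstream Bckdhb window, at 1 in the downstream Bckdhb window, at 1 in the upstream Bcat1 window, at 0 in the downstream Bcat1 window and at 2 in the Ppm1k window. These matches describe the letters of the reference windows only.

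The libraries held 40656175 expected counts in replicate 2 and 37735687 in replicate 1, of which the 10 members took 17229 in replicate 2 and 13358 in replicate 1. The skeletal muscle markers were among the highest detected protein-coding genes by mean TPM. They were led by Acta1 with 21414 TPM in replicate 2 against 26410 TPM in replicate 1 and by Ckm with 16462 TPM in replicate 2 and 23121 in replicate 1. All 6 muscle markers were lower in replicate 2, although 2 of them were higher when scaled to spike-ins. The libraries stood apart in fibre type and in other tissue. The 9 slow fibre markers, led by Myl2 and Myh7, summed to 2996 TPM in replicate 2 and 23.6 in replicate 1, and all 9 were more than 2-fold higher in replicate 2. Myh1 and Myh2, myosins of 2X and 2A fibres, summed to 1952 TPM in replicate 2 and 279 in replicate 1. All 8 fat cell markers, led by Fabp4 and Cfd, were lower in replicate 2, with a summed 114 TPM in replicate 2 against 371 in replicate 1, and so were all 5 Schwann cell markers, among them Mbp, with a summed 35.9 TPM in replicate 2 and 117 in replicate 1, and all 5 red blood cell markers, led by Hbb-bs and Hba-a1, with a summed 425 TPM in replicate 2 and 2445 in replicate 1. The 4 T cell markers, led by Cd8a and Rag1, summed to 4.89 TPM in replicate 2 and 0.20 in replicate 1, where Rag1 was at 0, and no other marker was at 0 in either library. The sums of 5 macrophage markers, led by Lyz2 and Mrc1, were 23.3 TPM in replicate 2 and 20.98 in replicate 1, those of 3 endothelial markers, led by Cdh5 and Pecam1, 36.2 TPM in replicate 2 and 31.2 in replicate 1, those of 3 fibroblast markers, led by Col1a1 and Dcn, 350 TPM in replicate 2 and 338 in replicate 1, and those of the liver markers Alb and Apoa1 3.18 TPM in replicate 2 and 0.39 in replicate 1. Mitochondrially encoded genes took 17.5% of the counts in replicate 2 and 9.39% in replicate 1. These differences stand beside every library difference given below, and their part in it was not tested. In bulk tissue, fewer cells of a type and less RNA per cell cannot be told apart.

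Of the 10 members, 9 were detected at 1 TPM or more in both libraries, and Bcat1 was not. Over all protein-coding genes, 9955 of 22028 were detected by that rule, which is 45.2%. TPM is a level per transcript length and can be compared between genes. The members' median level was 27.5 TPM in replicate 2 and 22.5 in replicate 1 (mean 24.995 ± 3.51, SD, n = 2), beside 7.33 TPM in replicate 2 and 7.30 in replicate 1 over the detected protein-coding genes. In both the gene table and the reads-based table the order of the mean levels was Bckdk, Ivd, Hibadh, Bckdha, Bcat2, Bckdhb, Mccc1, Dbt, Ppm1k and Bcat1. Between neighbours in that order, the ranges of the 2 libraries overlapped for Bckdk and Ivd, for Hibadh and Bckdha, for Bckdha and Bcat2, and for Bckdhb and Mccc1. They did not overlap at the other 5 steps.

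**Figure D1:**
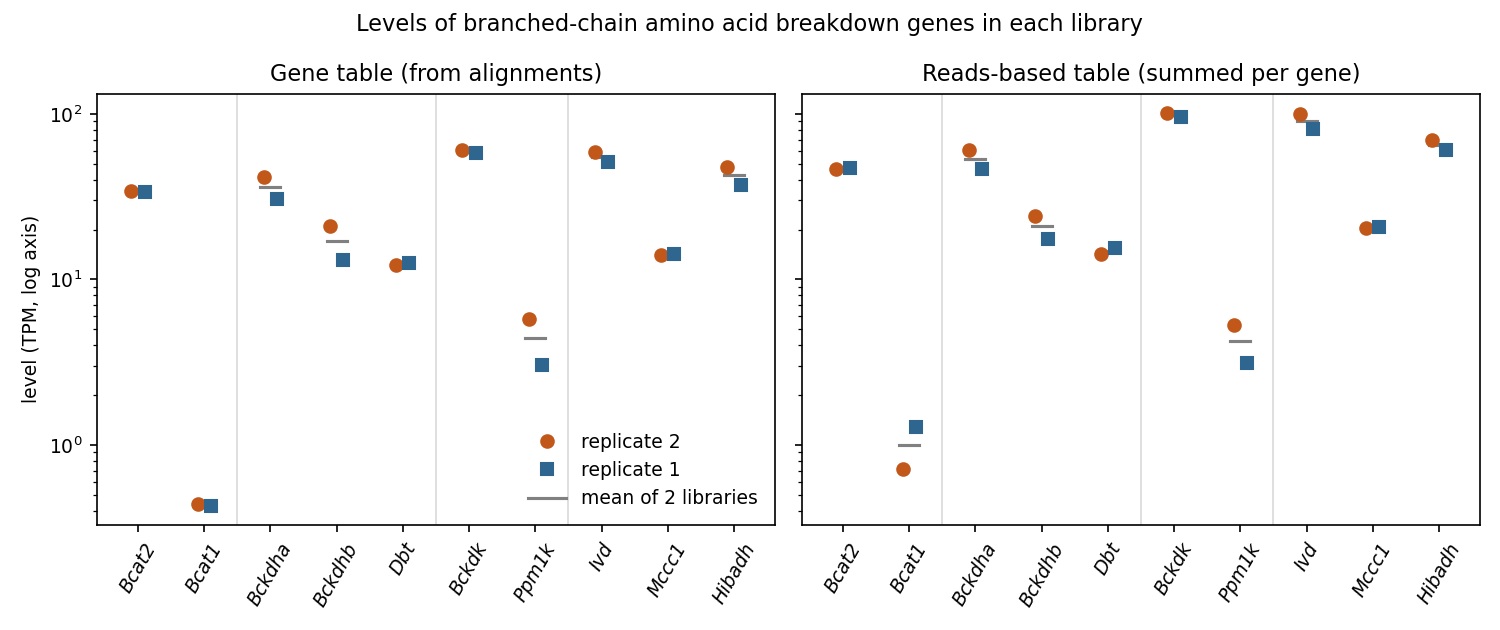
Levels of the 10 members in TPM on a log axis, from the gene table (left) and from the reads-based transcript table summed per gene (right), with circles for replicate 2, squares for replicate 1 and grey bars for the mean of the 2 libraries. Bcat1 lies far below Bcat2, and Ppm1k far below Bckdk, in both tables, while Bckdk and Ivd have the highest levels.

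The main branched-chain aminotransferase mRNA of this muscle was Bcat2, the mitochondrial enzyme, and Bcat1, its cytosolic paralog, was below the detection level of 1 TPM. Bcat2 (ENSMUSG00000030826.19, chromosome 7, 45570153 to 45589711, plus strand) was at 34.0 TPM in replicate 2 and 33.7 in replicate 1. Its level was above that of 86.4% of detected protein-coding genes. Bcat1 (ENSMUSG00000030268.17, chromosome 6, 144993835 to 145076184, minus strand) was at 0.44 TPM in replicate 2 and 0.43 in replicate 1, from 36 counts in replicate 2 and 32 in replicate 1. Scaled by TMM, the libraries did not differ for either paralog beyond counting error. The count ratio was 1.06-fold for Bcat2 (95% exact counting interval 0.984 to 1.14) and 1.08-fold for Bcat1 (0.651 to 1.79). Scaled to spike-ins the log2 ratio was 0.47 for Bcat2, above its interval, and 0.49 for Bcat1, within its interval. Bcat2 took 98.7% of the TPM of the pair in each library. By counts its share was 97.7% in replicate 2 (95% Clopper-Pearson interval 96.8 to 98.4) and 97.7% in replicate 1 (96.8 to 98.4). Counting intervals here and below cover counting error only, and not the spread between libraries, because 1 library stands on each side. Reads that carry no molecular identifier cannot be counted as separate molecules, so the intervals may be too narrow even for counting error. In the reads-based table Bcat1 was at 0.710 TPM in replicate 2 and 1.29 in replicate 1, and the share of Bcat2 was 98.5% in replicate 2 and 97.4% in replicate 1.

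The subunits of the dehydrogenase complex were present at unequal mRNA levels, and all 3 had larger scaled counts in replicate 2. Bckdha, E1 alpha and the subunit that is phosphorylated (ENSMUSG00000060376.7, chromosome 7, 25629946 to 25658981, minus strand), was at 41.7 TPM in replicate 2 and 30.8 in replicate 1. Bckdhb, E1 beta (ENSMUSG00000032263.14, chromosome 9, 83925145 to 84124240, plus strand), was at 20.9 TPM in replicate 2 and 13.0 in replicate 1. Dbt, the E2 core that transfers the acyl group (ENSMUSG00000000340.10, chromosome 3, 116513070 to 116549981, plus strand), was at 12.2 TPM in replicate 2 and 12.6 in replicate 1. Bckdha was thus the highest and Dbt the lowest of the 3 in each library. E1 alpha and E1 beta form a tetramer with equal numbers of each, and the TPM ratio of Bckdha to Bckdhb was 1.99 in replicate 2 and 2.36 in replicate 1 (mean 2.18 ± 0.261, SD, n = 2). That ratio was close in the 2 libraries, with a count ratio in replicate 2 over replicate 1 of 0.937 (95% exact interval 0.819 to 1.07). Short noncoding RNAs held 29.1% of the Bckdhb TPM in replicate 2 and 18.2% in replicate 1 by alignment. By reads, where these RNAs had no counts, the TPM ratio of Bckdha to Bckdhb was 2.48 in replicate 2 and 2.67 in replicate 1.

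The scaled count of Bckdha was 1.40-fold higher in replicate 2 (95% exact interval 1.31 to 1.49), that of Bckdhb 1.49-fold higher (1.33 to 1.68) and that of Dbt 1.26-fold higher (1.15 to 1.38). Dbt was the one subunit whose TPM and counts went opposite ways. It had 1108 counts in replicate 2 and 844 in replicate 1. By alignment the lower TPM in replicate 2 came with a short RNA that was counted mainly in replicate 1. Dbt-202, a retained-intron transcript of 460 bases, had 6.23 counts and 0.54 TPM in replicate 2, against 41.2 counts and 3.74 TPM in replicate 1. The full coding transcript Dbt-201 alone was at 10.6 TPM in replicate 2 and 8.09 in replicate 1. By reads Dbt-202 had 0 counts in both libraries, although Dbt was again lower in replicate 2, at 14.3 TPM against 15.4 in replicate 1. There a different short RNA, Dbt-204, was at 0.0193 TPM in replicate 2 and 2.87 in replicate 1. The count ratio of Bckdhb to Dbt was 1.19-fold higher in replicate 2 (95% exact interval 1.02 to 1.38), and that of Bckdha to Dbt was 1.11-fold higher (0.994 to 1.24).

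Dld, the E3 subunit that this complex shares with the pyruvate and 2-oxoglutarate dehydrogenases, was at 76.6 TPM in replicate 2 and 59.1 in replicate 1. Its TPM was 6.30 times that of Dbt in replicate 2 and 4.67 times in replicate 1. The members were lower than the matching subunits of the pyruvate dehydrogenase complex, which has the same build. Pdha1 was at 5.46 times the TPM of Bckdha in each library. Pdhb was at 5.92 times that of Bckdhb in replicate 2 and 6.82 times in replicate 1, and Dlat at 6.69 times that of Dbt in replicate 2 and 4.92 times in replicate 1.

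The kinase and the phosphatase of the complex had levels far apart. Bckdk, the kinase that inactivates the complex (ENSMUSG00000030802.14, chromosome 7, 127904082 to 127910221, plus strand), was the highest member at 60.9 TPM in replicate 2 and 58.2 in replicate 1, above 92.3% of detected protein-coding genes. Ppm1k, the mitochondrial phosphatase that reactivates it (ENSMUSG00000037826.5, chromosome 6, 57506502 to 57535468, minus strand), was at 5.75 TPM in replicate 2 and 3.05 in replicate 1, above 34.3% of those genes. The scaled count of Bckdk was close in the 2 libraries, at 1.08-fold (95% exact interval 1.03 to 1.13). Ppm1k had 649 counts in replicate 2 and 353 in replicate 1 and was 1.76-fold higher in replicate 2 (1.55 to 2.01), the largest difference among the members. Among the 15007 genes tested, those that averaged 10 counts or more, 6.45% had a ratio that large or larger. The TPM ratio of Bckdk to Ppm1k was 10.6 in replicate 2 and 19.1 in replicate 1, and by reads it was 18.9 in replicate 2 and 30.5 in replicate 1. As a ratio of counts it was 5.28 in replicate 2 and 8.63 in replicate 1, which is 0.612-fold (95% exact interval 0.532 to 0.705), so the difference exceeded counting error.

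The pyruvate dehydrogenase complex has kinases and phosphatases of its own. Pdk4 was at 663 TPM in replicate 2 and 393 in replicate 1, which is 10.9 times the TPM of Bckdk in replicate 2 and 6.75 times in replicate 1. Pdk2 was at 3.09 times the TPM of Bckdk in replicate 2 and 2.70 times in replicate 1. Pdp1, a phosphatase of that complex, was at 5.82 times the TPM of Ppm1k in replicate 2 and 8.09 times in replicate 1.

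Of the downstream members, Ivd and Hibadh were high and Mccc1 was lower. Ivd, isovaleryl-CoA dehydrogenase of the leucine branch (ENSMUSG00000027332.11, chromosome 2, 118861954 to 118882909, plus strand), was at 58.5 TPM in replicate 2 and 51.0 in replicate 1. Its scaled count was 1.31-fold higher in replicate 2 (95% exact interval 1.25 to 1.38). Mccc1, the biotin-carrying subunit of the carboxylase that follows Ivd (ENSMUSG00000027709.9, chromosome 3, 35959312 to 36000678, minus strand), was at 14.1 TPM in replicate 2 and 14.3 in replicate 1, with a count ratio of 1.04-fold (0.9505 to 1.14). Scaled by TMM, the libraries did not differ for Mccc1 beyond counting error. Scaled to spike-ins its log2 ratio was 0.44, above that interval. Its partner subunit Mccc2 was at 14.7 TPM in replicate 2 and 13.5 in replicate 1, so the TPM ratio of Mccc1 to Mccc2 was near even at 0.960 in replicate 2 and 1.05 in replicate 1. Ivd was at 4.16 times the TPM of Mccc1 in replicate 2 and 3.58 times in replicate 1. Hibadh, 3-hydroxyisobutyrate dehydrogenase of the valine branch (ENSMUSG00000029776.11, chromosome 6, 52546228 to 52640389, minus strand), was at 47.7 TPM in replicate 2 and 37.4 in replicate 1, and its scaled count was 1.29-fold higher in replicate 2 (1.21 to 1.36).

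All 10 members had larger scaled counts in replicate 2, although in deposited TPM 8 of 10 did, with Dbt and Mccc1 slightly lower. Over all genes tested, 50.6% were higher in replicate 2. The members' median log2 ratio was 0.35, against 0.00 over all genes tested. Only Ppm1k passed 1.5-fold by scaled counts, and 10.4% of all genes tested were more than 1.5-fold higher in replicate 2. Just outside that fold stood Bckdhb at 1.49, which passed it in deposited TPM. Scaled to spike-ins, which moved the median log2 ratio of all genes up by 0.38, 6 members passed 1.5-fold. The share of all genes past that fold was computed by TMM only. By TMM-scaled counts no member passed 2-fold, which 7.76% of all genes tested did. The common biological coefficient of variation between the 2 libraries was 0.220 over the 14263 genes fitted by edgeR. Of the members, 9 lay within the middle 80% of log2 ratios of all genes, which ran between -0.46 and 0.60, and Ppm1k at 0.82 lay above it. The smallest differences were those of Mccc1 and of both aminotransferases and Bckdk, and the larger ones those of the E1 subunits and Ppm1k.

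**Figure D2:**
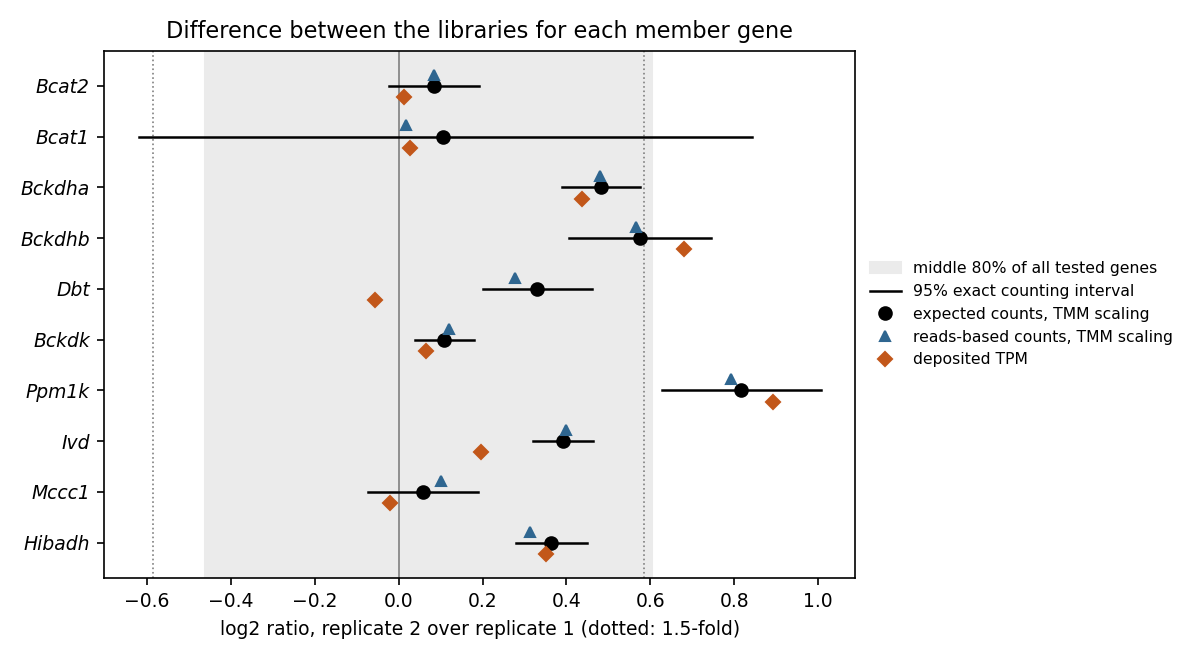
Log2 ratio of replicate 2 over replicate 1 for each member. Black circles are TMM-scaled expected counts with 95% exact counting intervals, blue triangles are reads-based counts, orange diamonds are deposited TPM, the grey band holds the middle 80% of all 15007 genes tested and dotted lines mark 1.5-fold. Only Ppm1k lies above the band by counts, and Dbt and Mccc1 change sign in deposited TPM.

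The genes of the pathway outside the members comprised 34 genes in 7 lists, of which 31 were detected. In replicate 2, 24 of the 34 were higher and 10 lower, with a median log2 ratio of 0.16. Over 1.5-fold by TMM, 8 were higher and 1 was lower, beside 10.4% and 7.28% of all genes tested. By spike-ins, which raised the median log2 ratio of all genes by 0.38, 15 were higher and 0 lower. The share of all genes past 1.5-fold was not computed under that scaling.

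The genes that follow the members in the leucine branch differed little. Auh, the hydratase after the carboxylase, was at 27.5 TPM in replicate 2 and 25.3 in replicate 1, and none of the 3 genes of this list passed 1.5-fold. In the isoleucine and valine branch 6 of 7 were higher in replicate 2, and 2 passed 1.5-fold, or 1 in reads-based counts, where Echs1 was at a log2 ratio of 0.56. Echs1, the short-chain hydratase, was at 57.1 TPM in replicate 2 and 37.6 in replicate 1 (1.52-fold by counts), and Acat1, the mitochondrial thiolase, at 47.9 TPM in replicate 2 and 25.8 in replicate 1 (1.84-fold). Both also act on fatty acid or ketone intermediates. Acadsb, the acyl-CoA dehydrogenase of the isoleucine route, was at 56.7 TPM in replicate 2 and 58.4 in replicate 1. Hsd17b10, the next dehydrogenase of that route, was at 37.4 TPM in replicate 2 and 37.1 in replicate 1, and Acad8, which serves valine, was the lowest at 13.8 TPM in replicate 2 and 11 in replicate 1. By alignment the gene level of Acadsb was thus near that of Ivd in both libraries, and Acad8 near that of Mccc1. By reads Acadsb was at 73.2 TPM in replicate 2 and 84.4 in replicate 1, and Ivd at 99.6 in replicate 2 and 81.4 in replicate 1.

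All 6 genes of propionyl-CoA disposal were higher in replicate 2 with a median log2 ratio of 0.24, except that Mmab changed sign in the reads-based counts, and none passed 1.5-fold. The epimerase Mcee was at 39.1 TPM in replicate 2 and 30.04 in replicate 1, the mutase gene Mut at 30.2 TPM in replicate 2 and 25.8 in replicate 1, and the carboxylase subunit Pccb at 22.9 TPM in replicate 2 and 21.1 in replicate 1. Mmab, which makes the cobalamin cofactor of the mutase, was the lowest at 5.25 TPM in replicate 2 and 5.07 in replicate 1.

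The transporters went the other way by TMM-scaled counts. Of 5, 4 were lower in replicate 2 and the median log2 ratio was -0.34, with all 5 lower in deposited TPM and reads-based counts. Scaled to spike-ins the direction turned, with 3 of 5 higher in replicate 2 and a median of 0.04, although less the shift of all genes under that scaling the median was again -0.34. Slc7a8, a carrier of neutral amino acids, was at 6.86 TPM in replicate 2 and 13.1 in replicate 1 (0.541-fold by counts), and its partner chain Slc3a2 at 10.95 TPM in replicate 2 and 17.3 in replicate 1 (0.678-fold). Slc43a1, another carrier of branched-chain amino acids, was at 7.53 TPM in replicate 2 and 9.66 in replicate 1, and Slc7a5 was the lowest at 0.73 TPM in replicate 2 and 0.94 in replicate 1. The mitochondrial carrier Slc25a44 was level, at 6.13 TPM in replicate 2 and 6.15 in replicate 1.

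Among 6 regulators, 3 were over 1.5-fold higher in replicate 2. Ppara, a nuclear receptor of fat oxidation, was at 6.48 TPM in replicate 2 and 0.70 in replicate 1, and was 8.87-fold higher by counts (95% exact interval 6.86 to 11.6). Ppargc1a, the coactivator of mitochondrial genes, was at 23.5 TPM in replicate 2 and 8.09 in replicate 1 (2.76-fold), and Esrra, a nuclear receptor that it coactivates, at 33.4 TPM in replicate 2 and 20.1 in replicate 1 (1.63-fold). Klf15, a factor known to act on amino acid breakdown genes in muscle, was at 14.9 TPM in replicate 2 and 17.4 in replicate 1. Lars, the leucyl-tRNA synthetase, was at 14.7 TPM in replicate 2 and 19.1 in replicate 1, and Sesn2, a leucine sensor and the lowest of the list in replicate 2, at 1.07 TPM in replicate 2 and 0.89 in replicate 1, where Ppara was lower. The members differed less than Ppara, Ppargc1a or Esrra, apart from Ppm1k, which lay between Esrra and Ppargc1a.

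The 6 genes that handle the amino group had a median of 142 TPM in replicate 2 against 82.2 in replicate 1, and 3 of them passed 1.5-fold higher in replicate 2, or 2 in reads-based counts and with a prior count of 5, where Gpt did not pass. Got1, the cytosolic aspartate aminotransferase, was at 165 TPM in replicate 2 and 64.8 in replicate 1 (2.57-fold by counts), and Got2, its mitochondrial paralog, at 171 TPM in replicate 2 and 99.7 in replicate 1 (1.73-fold). Glul, glutamine synthetase, was at 174 TPM in replicate 2 and 238 in replicate 1, and Gpt2, the mitochondrial alanine aminotransferase, at 119 TPM in replicate 2 and 180 in replicate 1. Gpt, its cytosolic paralog, was the lowest of the list at 17.5 TPM in replicate 2 and 10.8 in replicate 1 (1.502-fold). By TMM-scaled counts Got1 and Gpt2 thus differed between the libraries in opposite directions, while Bcat2 was level.

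Set beside other mitochondrial lists, the members' median log2 ratio lay below that of beta-oxidation under every scaling tried. It was close to that of the citric acid cycle by TMM, at 0.35 for the members and 0.40 for the cycle, but not in deposited TPM, at 0.13 for the members and 0.38 for the cycle, nor in nuclear-coding TPM, at 0.28 for the members and 0.53 for the cycle. The 16 citric acid cycle genes were all higher in replicate 2, and 2 passed 1.5-fold by TMM against 15 by spike-ins and 5 in nuclear-coding TPM. The 11 genes of the pyruvate dehydrogenase complex were all higher, apart from a change of sign of Pdk3 in TPM, with a median of 0.46. Of these 11, 2 passed 1.5-fold, Pdk4 and the phosphatase Pdp2, against 10 by spike-ins and 6 in nuclear-coding TPM. Over all genes tested, 10.4% were more than 1.5-fold higher by TMM, and that share was not computed under the other scalings. The 12 beta-oxidation genes were all higher and all past 1.5-fold, with a median of 0.89, although Acads at 1.52-fold did not pass in reads-based counts, where its log2 ratio was 0.58. Median levels were 208 TPM in replicate 2 and 160 in replicate 1 for the citric acid cycle and 111 TPM in replicate 2 and 54.9 in replicate 1 for beta-oxidation, all above the members' medians.

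**Figure D3:**
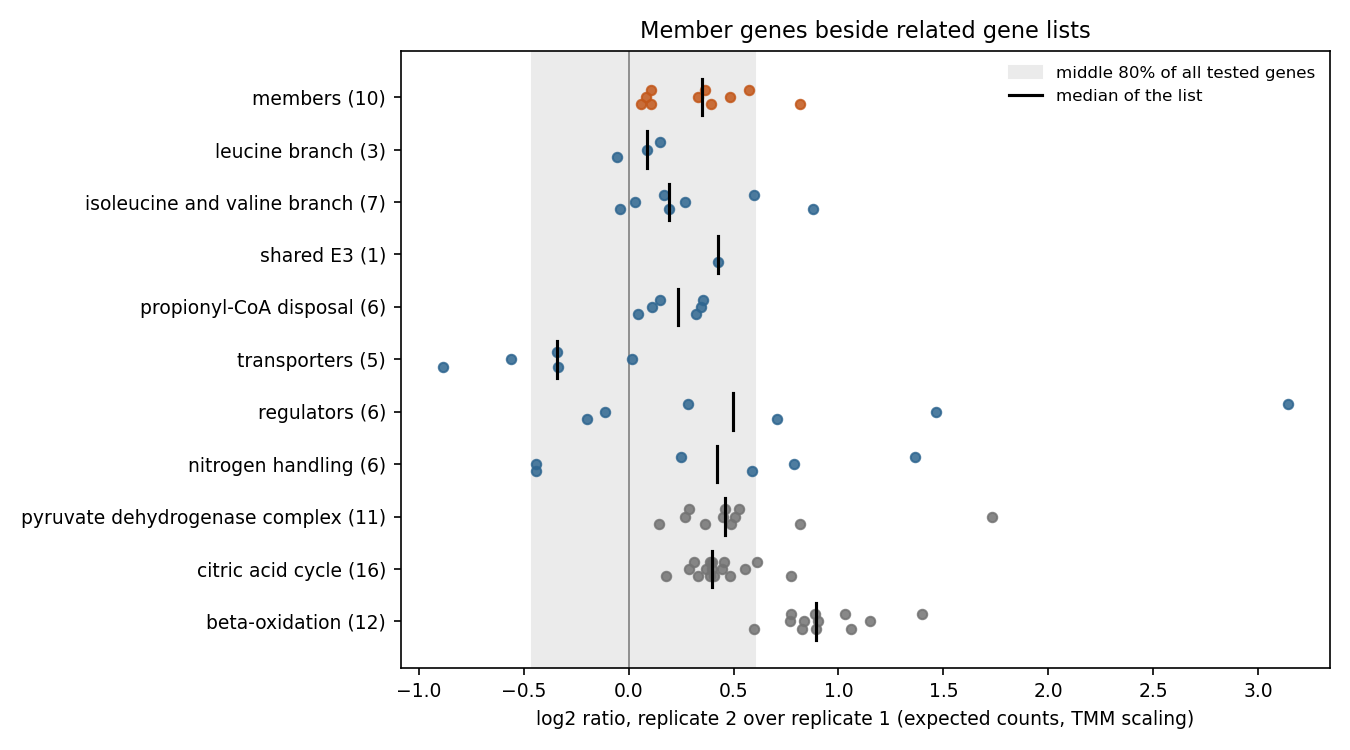
Log2 ratio of replicate 2 over replicate 1 from TMM-scaled expected counts for each gene of the members, of the 7 pathway lists and of 3 other mitochondrial lists, with the number of genes in parentheses, black bars for list medians and a grey band for the middle 80% of all genes tested. The members centre at 0.35, near the citric acid cycle at 0.40 by this scaling though not in TPM, while beta-oxidation centres at 0.89 and the transporters at -0.34.

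The transcripts behind each member's level were quantified from alignments and, in a separate table, directly from the reads. For Bckdha and Hibadh both tables gave a single coding transcript nearly all of the TPM: Bckdha-201 had 96.0% in replicate 2 and 93.2% in replicate 1, and 100% in both by reads, and Hibadh-201 had 97.4% in replicate 2 and 96.5% in replicate 1. For the other members the tables or the libraries divided the RNA differently. Over the 10 members the leading transcript held a median of 64.0% of the TPM by alignment.

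Bcat2 was divided among several transcripts, among them the pair that differs at the junction printed above. By alignment Bcat2-201, with the 15 bases, held 39.4% of the TPM in replicate 2 and 36.3% in replicate 1, and Bcat2-202, without them, held 19.9% in replicate 2 and 32.6% in replicate 1. Bcat2-202 had 314 counts in replicate 2 and 483 in replicate 1 by alignment, with posterior SDs of 104 counts in replicate 2 and 116 in replicate 1, and 0 in both libraries by reads. Bcat2-201 then held 78.0% in replicate 2 and 79.4% in replicate 1. Bcat2-208 had 198 counts in replicate 2 and 0 in replicate 1, with posterior SDs of 102 in replicate 2 and 64.1 in replicate 1, and 0 by reads. Bcat2-204, annotated for nonsense-mediated decay, held 18.7% in replicate 2 and 16.6% in replicate 1. While these transcripts had wide posterior SDs, that of the gene count was 0 for all 10 members in both libraries.

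Bckdhb transcripts differed at their 5 prime end. Bckdhb-201 and Bckdhb-206 are identical except for 5 bases at the start of Bckdhb-206 (chromosome 9, 83925145 to 83925149), and their annotated coding lengths are 966 and 1170 bases. By alignment Bckdhb-201 held 55.5% of the TPM in replicate 2 and 69.5% in replicate 1 and Bckdhb-206 held 0 in both. The division between them was not firm. Bckdhb-201 had 515 counts (posterior SD 152) in replicate 2 and 380 (114) in replicate 1. The posterior SDs of Bckdhb-206 were 142 counts in replicate 2 and 108 in replicate 1. By reads Bckdhb-201 held 87.8% in replicate 2, while in replicate 1 Bckdhb-206 held 98.4%. The RNAs that led in the 2 libraries by reads thus differ by 5 bases. Bckdhb-205, from the downstream start printed above, held 15.4% in replicate 2 and 12.3% in replicate 1 by alignment, from 135 counts (posterior SD 49.0) in replicate 2 and 63.4 counts (42.1) in replicate 1. By reads it held 12.1% in replicate 2 and 0 in replicate 1. The short noncoding Bckdhb-203 held 28.8% in replicate 2 and 1.84% in replicate 1, and Bckdhb-204 held 0.287% in replicate 2 and 16.3% in replicate 1, and neither had reads-based counts.

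Bcat1 was too low to divide firmly. Bcat1-203, from the upstream start, had 18.7 counts in replicate 2 and 15 in replicate 1, and Bcat1-201, from the downstream start, had 12.6 in replicate 2 and 13.9 in replicate 1. Transcripts annotated from both starts had counts in both libraries, with posterior SDs of 2.71 to 3.77 counts. These are counts of whole transcripts, and use of each start was not measured. Bcat1-204 had 4.75 counts in replicate 2 and 1.54 in replicate 1, and Bcat1-210, of 540 bases, had 0 in replicate 2 and 1.61 in replicate 1. That last RNA held 55.6% of the reads-based TPM in replicate 1 from 3.70 counts, and it led the gene there.

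Short RNAs also took part of the TPM of Ppm1k, Ivd and Bckdk. Ppm1k-201, the coding transcript of 5560 bases, had 97.4% of the gene's counts in replicate 2 and 98.6% in replicate 1, but 62.3% in replicate 2 and 68.5% in replicate 1 of its TPM. The 264-base Ppm1k-202 held 29.9% of the TPM in replicate 2 and 31.5% in replicate 1 from 9.13 counts in replicate 2 and 4.83 in replicate 1. It had 0 reads-based counts in both libraries, and the TPM of Ppm1k-201 alone was 3.59 in replicate 2 and 2.09 in replicate 1.

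Ivd-201, the coding transcript, had 81.8% of the counts in replicate 2 and 79.2% in replicate 1, with 45.3% in replicate 2 and 38.7% in replicate 1 of the TPM. The noncoding Ivd-206 held 21.9% in replicate 2 and 20.2% in replicate 1, and Ivd-207 held 21.3% in replicate 2 and 22.8% in replicate 1. Both tables counted these: by reads Ivd-206 held 32.8% in replicate 2 and 31.2% in replicate 1, and Ivd-207 held 31.9% in replicate 2 and 34.3% in replicate 1. The 266-base Ivd-205 held 1.64% in replicate 2 and 13.97% in replicate 1 by alignment and 0 by reads. The level of coding Ivd RNA, 26.5 TPM in replicate 2 and 19.8 in replicate 1, was therefore below the gene's total, and below that of Bckdha-201 at 40.0 TPM in replicate 2 and 28.7 in replicate 1.

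Bckdk-202 led its gene with 66.8% of the TPM in replicate 2 and 64.1% in replicate 1, and Bckdk-201 held 14.5% in replicate 2 and 14.3% in replicate 1. The tables parted over 2 shorter RNAs. Bckdk-203, with a retained intron, held 18.3% in replicate 2 and 16.0% in replicate 1 by alignment, but 0.241% in replicate 2 and 0.447% in replicate 1 by reads. Bckdk-204, a coding transcript, held 0 in replicate 2 and 0.876% in replicate 1 by alignment, but 42.4% in replicate 2 and 34.6% in replicate 1 by reads. The leading transcripts of Mccc1 had like shares in both tables. Mccc1-201 held 62.2% in replicate 2 and 59.3% in replicate 1, Mccc1-205, annotated for nonsense-mediated decay, held 14.4% in replicate 2 and 13.5% in replicate 1, and the retained-intron Mccc1-208 held 14.1% in replicate 2 and 18.8% in replicate 1. By reads Mccc1-201 held 63.3% in replicate 2 and 62.8% in replicate 1 and Mccc1-205 held 13.5% in replicate 2 and 13.8% in replicate 1, while Mccc1-208 held 3.87% in replicate 2 and 6.05% in replicate 1, and Mccc1-206, at 0 by alignment, held 11.7% in replicate 2 and 8.06% in replicate 1. Dbt-201 held 86.8% of the TPM in replicate 2 and 64.0% in replicate 1, and 99.9% in replicate 2 and 81.4% in replicate 1 by reads, where Dbt-204, annotated for decay, held 0.135% in replicate 2 and 18.6% in replicate 1.

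**Figure D4:**
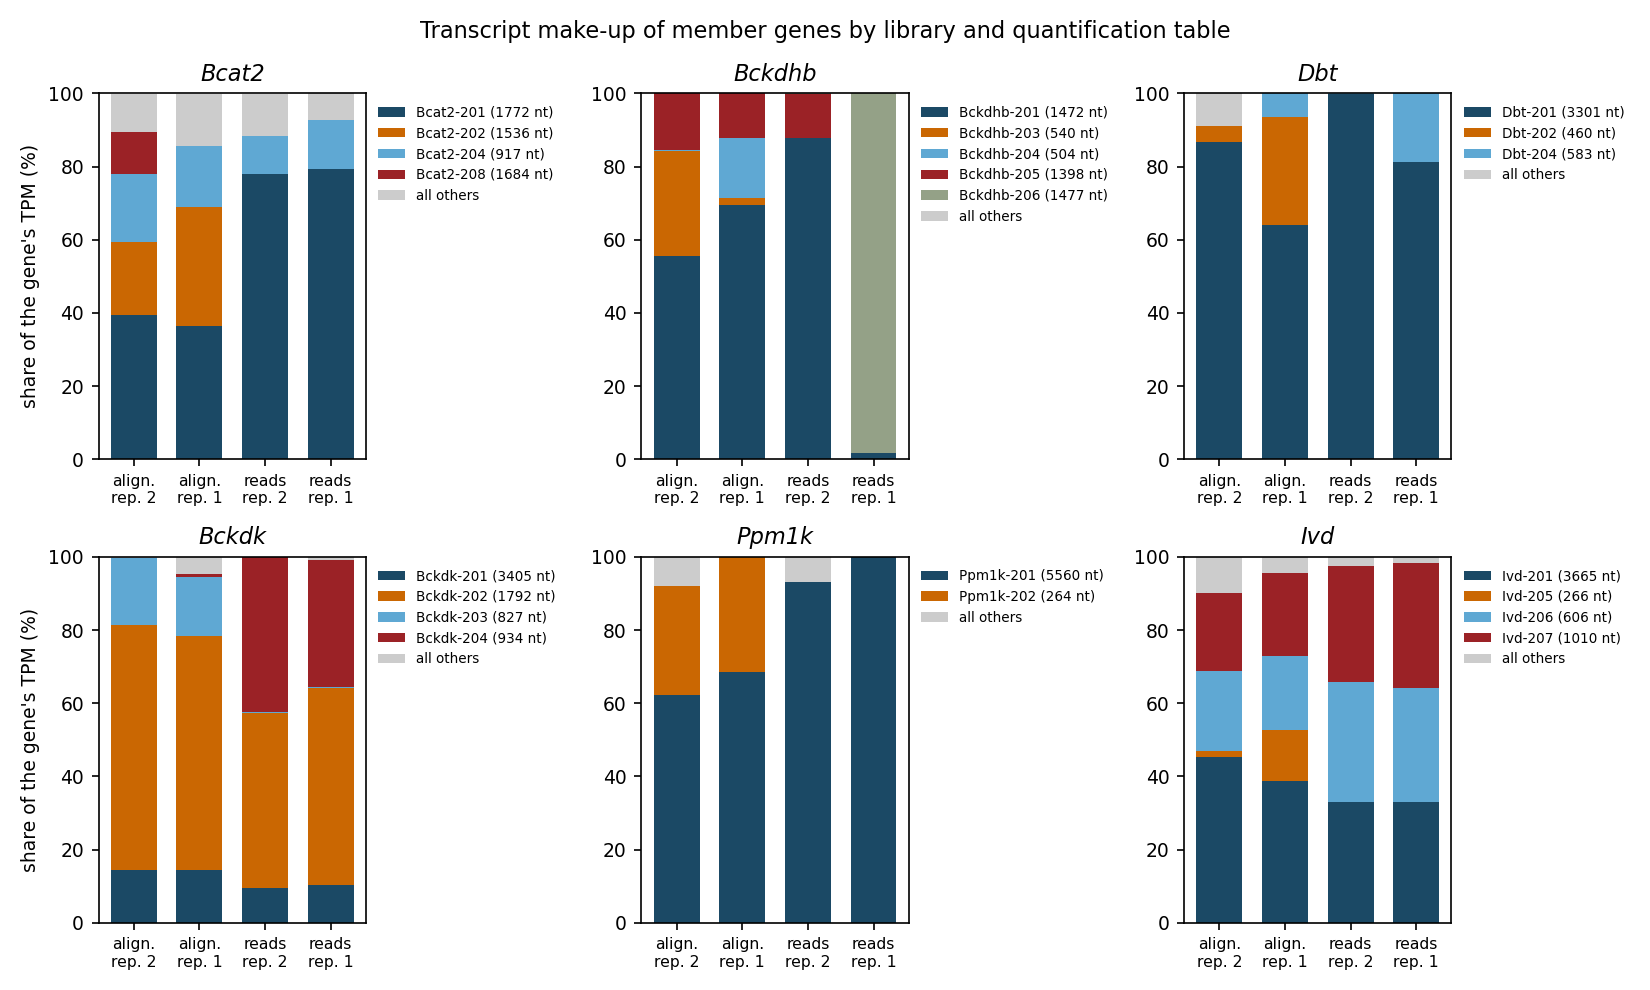
Share of each gene's TPM, in percent, held by transcripts of Bcat2, Bckdhb, Dbt, Bckdk, Ppm1k and Ivd, with replicate 2 left of replicate 1 for the alignment-based table (align.) and the reads-based table (reads), and lengths in nucleotides. Bckdhb-206 fills 98.4% of replicate 1 by reads and at most 0.105% of the others, and Ppm1k-202 appears by alignment only.

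Other annotated genes overlap the spans of 8 members, 18 genes in all, of which 13 lie on the opposite strand. None had 100 counts in either library. The highest in replicate 2 was Gm44434 within Hibadh, with 59 counts in replicate 2 and 32 in replicate 1, while Hibadh itself had 2696 in replicate 2 and 2006 in replicate 1. Whether strand was used in counting is not given in the sources used here, so reads of opposite-strand partners may be divided otherwise than by origin.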

How the data were processed

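Each library had a gene table, a transcript table from alignments and a transcript table from the reads. The expected counts (alignments) and estimated counts (reads) are as the authors deposited them, not normalised and not always whole. TPM values are as deposited, scaled to a fixed total with spike-ins included. Rn7s1 and Rn7s2 together took 27.7% of that total in replicate 2 and 34.0% in replicate 1, which bears on the TPM of every other gene. The deposited tables also give, per the file headers, isoform percent, the posterior SD of a count, a score that was used to show how firmly counts were divided, and a signal for the bounds of TPM; isoform percent and those bounds were not used. Per the deposited descriptions, the tables rest on mm10 and the GENCODE M21 annotation. The program used for quantification is not given in the sources used here. The effect of castaneus alleles on alignment was not tested.

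The 26248 tRNA rows, with 0 counts in replicate 2 and 3 in replicate 1, were left out, and 97 spike-in rows entered only a spike-in scaling. Expected counts were rounded to whole numbers. Log2 ratios and folds are replicate 2 over replicate 1 of counts scaled by TMM in edgeR 4.0.16 (R 4.3.3) with a prior count of 0.5 for log2 values, over genes that averaged 10 counts or more. Spread was estimated by an intercept-only fit after edgeR's filter on low counts. Scaling was tested on simulated data. DESeq2 1.42.0 size factors, spike-in scaling, TPM with a pseudocount of 0.1, TPM over nuclear protein-coding genes, reads-based counts, a prior count of 5, other filters and detection thresholds and each library left out were alternatives. Ratio intervals and pair intervals are exact at 95%. Python 3.11.15 was used otherwise.

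Members and lists were chosen with earlier results of these data known. Named in the text are all members, transcripts with at least 10% of a member's TPM in any table, and of each list those past 2-fold, the 3 highest and the lowest, or the 2 highest markers, by mean TPM. Acat1, Acads, Slc25a44, Pdp1, Pdp2 and Gm44434 and the matched subunits of the pyruvate dehydrogenase complex were named after their values were seen. For 2 list genes covered by this rule, values are not reported here.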

Additional observations from a re-analysis of the deposited data

How the results depend on the processing

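No paired analysis was possible because the series has 1 group and nothing to pair across. Scaling to spike-ins shifted the median log2 ratio of all genes by 0.38, and TPM over nuclear protein-coding genes by 0.13. Members past 1.5-fold, 1 by TMM, were 6 by spike-ins, 2 in deposited TPM and 3 in nuclear-coding TPM. The share of all genes past 1.5-fold was computed by TMM only. The members' median log2 ratio of 0.35 became 0.73 by spike-ins, which is 0.35 less that shift, and 0.13 in deposited TPM. The pathway genes' median of 0.16 became 0.54 by spike-ins and 0.32 in nuclear-coding TPM. The members' median level of 24.995 TPM was 34.6 in reads-based TPM and 58.7 in nuclear-coding TPM. In reads-based TPM the Bcat2 share of 98.7% was 97.9%, the ratio of Bckdk to Ppm1k 24.7 in place of 14.8, that of Bckdha to Bckdhb 2.58 in place of 2.18, and the median leading transcript share 70.9% in place of 64.0%. With each library alone and by alignment, the members' median level ran over 22.5 to 27.5 TPM and the Bcat2 share was 98.7% in both. On the same terms the ratio of Bckdk to Ppm1k ran over 10.6 to 19.1 and that of Bckdha to Bckdhb over 1.99 to 2.36. The median leading transcript share ran over 62.3% to 64.1%. All 10 members were higher in replicate 2 under each scaling of counts, 8 in deposited TPM, and in nuclear-coding TPM 10, or 8 less its shift. Detected members were 9, with 8 at a threshold of 5 TPM and 10 at a minimum of 10 counts. Of the alternatives to these summary values 14 moved and 57 did not. For values of single members and their transcripts, 43 moved and 87 did not. Among the log2 ratios of the 10 members, 9 moved by spike-ins, 6 in nuclear-coding TPM and 2 in deposited TPM. A count had to stay within 1.5 times, and a level, share or ratio of genes within 1 SD of the libraries. A median log2 ratio had to stay within the median counting interval of its genes. Some of the 57 and of the 87 could not have moved, so neither tally is a measure of robustness. Where a value is the mean of 2 libraries, each library alone always lies within 1 SD of it. Ratios of TPM within a library are unchanged in nuclear-coding TPM, and lifting the filter on low counts added no gene. Depth limits Bcat1 and its transcripts, and short transcripts with few counts.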
